A study of Homo sapiens with 5 samples.

Results

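The genes described here encode members of the core ERK cascade. They cover the RAS GTPases NRAS and HRAS, the RAF kinases ARAF and BRAF, the MEK kinases MAP2K1 and MAP2K2, and an ERK kinase, MAPK3. They were chosen by name, and all 7 had a row among the 11976 genes of the authors' deposited table, so each had passed whatever filter on low expression the authors applied. Total RNA of HUDEP-2 cells, an immortalised erythroid progenitor line from umbilical cord blood, was sequenced in 3 libraries labelled ERF knockout and 2 labelled wild type, whose titles carry the unexplained letters SCR. The authors named their comparison WT and MT in Pre, and what Pre marks is not stated in the sources used here. No other allele, agent or treatment is labelled in either group. The labels do not say whether the knockout libraries come from 1 clone or several, or from separate cultures. The p-values therefore rest only on a spread between libraries, which may be technical and is not each gene's own alone. The authors' deposited table holds their comparison of the groups and no value per library, so no level per library, SD or depth is given.

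RAS proteins are membrane-bound switches that growth factor and cytokine receptors load with GTP. Loaded RAS recruits RAF kinases, RAF phosphorylates MEK, and MEK phosphorylates ERK. ERK in turn phosphorylates ERF, an ETS-domain repressor, which then leaves the nucleus, and in erythroid progenitors the cascade runs downstream of the receptors for erythropoietin and stem cell factor. All of these steps act on proteins. The RNA levels given here measure how much transcript each gene had, not how active its product was.

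The header of the authors' deposited table does not say which group is the reference. The sign was set so that the γ-globin gene HBG2 is higher in the libraries labelled knockout, because the series title links loss of ERF with γ-globin. The value of HBG2 was then a log2 fold change of 1.88 (standard error, SE, 0.22) in the authors' deposited table, which orients the comparison and is no finding. ERF, the targeted gene, went against its label under this sign, at 0.89 on the log2 scale in the authors' deposited table (95% interval 0.73 to 1.04, edgeR adjusted p = 6.44e-06). If the sign is the other way, every "higher" and "lower" below is exchanged. What does not depend on the sign is whether a gene moved with ERF and HBG2 or against them.

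All 12 erythroid markers checked were present in the authors' deposited table, at means of 6.90 (SLC4A1) to 12.48 (HBB) log2 CPM, that is counts scaled by library size. At an adjusted p below 0.05, 9 of these passed in the libraries labelled knockout as higher and 0 as lower, where over all genes 24.9% were higher and 25.9% lower. This threshold makes a call throughout. Among genes with at least 5 log2 CPM, a mean that all 12 markers exceed, 32.4% were higher and 24.9% lower. Of 13 markers of other blood cells, 3 were present: ITGA2B, PTPRC and LYZ, between 0.48 (LYZ) and 7.26 (ITGA2B) log2 CPM in the authors' deposited table, and none of the 3 was called. The other 10 were not analysed here. The part of the erythroid markers' shift in the results below was not tested, and in bulk RNA fewer cells of a type and less RNA per cell cannot be told apart.

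The promoters are shown first because ERF binds DNA through an ETS domain, whose core is GGAA. The windows below are 30 bases of RefSeq sequence (GRCh38.p14) on the strand of the gene, taken from the 250 bases before its annotated start. Capitals mark the CCGGAA closest to the start where there is one, and otherwise the closest GGAA, or TTCC where the core lies on the other strand. MAP2K1 and MAP2K2 each have 2 promoter entries, of which the entry nearest the start of the gene in GENCODE 29 was used.
NRAS: atggcgaaagaatGGAAgcgaataaagttt
HRAS: cccgcgttgctcCCGGAAgccccgcccgac
ARAF: gcccctcctaatCCGGAAcacgactcacat
BRAF: tggcccggggggtTTCCctggcccccaccc
MAP2K1: gcgaggcttccccTTCCccgcccctccccc
MAP2K2: ggtctccgcccctTTCCcctccgaaaggcg
MAPK3: tgacaggcaggcgGGAAggggcggggcctc

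The NRAS window is at chr1:114716936-114716965 on the minus strand. The HRAS window is at chr11:535692-535721 (minus strand) and the BRAF window at chr7:140924341-140924370 (minus strand), each in an intron of its own gene in GENCODE 29, whose longest models start earlier than RefSeq's. ARAF's is at chrX:47561056-47561085 (plus strand) and MAP2K2's at chr19:4124238-4124267 (minus strand), both outside any annotated gene. MAP2K1's, at chr15:66386875-66386904 (plus strand), and MAPK3's, at chr16:30123258-30123287 (minus strand), fall in an exon of their own gene in GENCODE 29. On either strand, GGAA occurred in 7 of the 7 promoters and in 92.7% of 35116 RefSeq promoters of the same length. The longer CCGGAA, which contains GGAA, occurred in 2 of the 7, HRAS and ARAF, and in 14.5% of all promoters. The longer still CCGGAAGT, which contains both, occurred in 0 of the 7 and in 3.42% of all promoters. A match describes these letters and is not a measured binding site.

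In the cascade, NRAS was modestly higher and BRAF modestly lower in the libraries labelled knockout, and the other 5 genes were not past the threshold of an adjusted p below 0.05. That makes 2 of 7 called, 1 in each direction. Over all genes of the authors' deposited table the share called was 50.9%, with 24.9% higher and 25.9% lower. The median log2 fold change was 0.0073 over the 7 genes and -0.0019 over all genes, and the median absolute change was 0.12 and 0.21. The largest estimate among the members was 1.22-fold, for NRAS.

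Under stricter rules only NRAS remained called among the members, and BRAF did not, but this pattern turns on the centring. With values centred on the median of genes with at least 5 log2 CPM, NRAS stood at 0.248 (adjusted p = 0.00122) and missed both the 0.25 minimum and 0.001, while BRAF stood at -0.263 (adjusted p = 0.00788) and passed both 0.01 and the 0.25 minimum. The counts that follow are without this centring. With an adjusted p below 0.01 this was 1 of 7, where 35.9% of all genes were called (17.5% higher, 18.4% lower). Below 0.001 it was again 1 of 7, where 18.9% of all genes were called (8.61% higher, 10.3% lower). With a further minimum of 0.25 for the absolute log2 fold change it was 1 of 7, where 37.2% of all genes were called (17.1% higher, 20.1% lower). Among genes with a mean of at least 5 log2 CPM, which leaves NRAS, ARAF and MAP2K2 of the members, 1 of 3 was called, where 57.2% of these genes were called (32.4% higher, 24.9% lower).

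**Figure D1:**
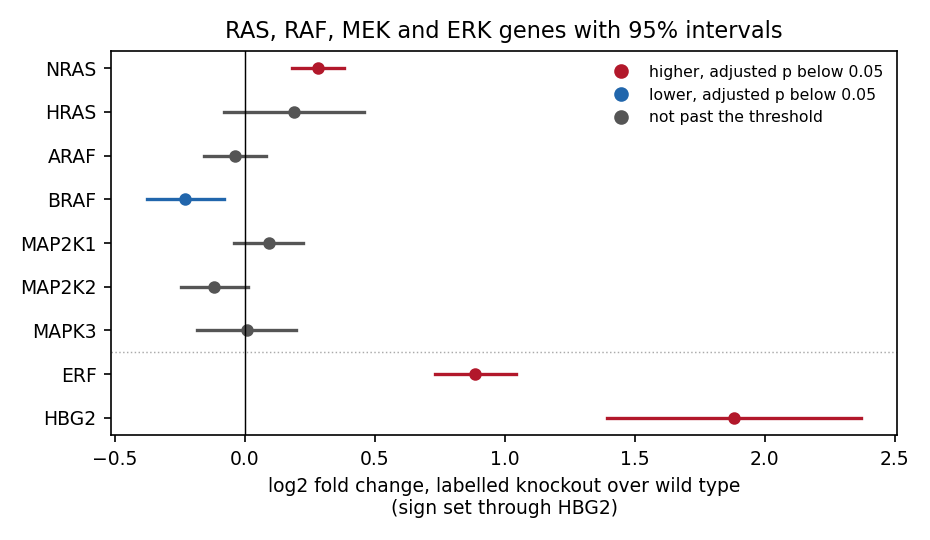
Log2 fold change of each cascade gene (points) with its 95% interval (lines), libraries labelled knockout over wild type, with ERF and HBG2 below the dotted line for scale. NRAS at 0.28 and BRAF at -0.23 have intervals clear of 0, and the intervals of the other 5 cascade genes cross it.

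NRAS (ENSG00000213281, chromosome 1) is one of the RAS GTPases that RAF kinases bind. With its mean CPM and fold change from the authors' deposited table, and libraries weighted equally, its level comes to 176.5 CPM in the libraries labelled knockout and 145.1 CPM in the wild type. The log2 fold change of NRAS in the authors' deposited table was 0.28 (SE 0.05, 95% interval 0.18 to 0.38, 1.22-fold higher, edgeR adjusted p = 0.000554). NRAS thus moved in the direction of ERF and HBG2. By absolute change it stood at percentile 62.8 of all genes, so a change of this size was common in this comparison.

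HRAS (ENSG00000174775, chromosome 11), also a RAS GTPase, came to 9.24 CPM in the libraries labelled knockout and 8.11 CPM in the wild type by the same estimate. In the authors' deposited table the log2 fold change of HRAS was 0.19 (SE 0.12, edgeR adjusted p = 0.216). The 95% interval, -0.08 to 0.46, was the widest of the 7. It holds both no change and the value of NRAS, and the difference between the paralogs was not tested. LRRC56, whose gene lies 239 bases away on the opposite strand, stood at -0.04 in the authors' deposited table and was not called.

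BRAF (ENSG00000157764, chromosome 7), the RAF kinase with the highest basal activity, came to 20.0 CPM in the libraries labelled knockout and 23.4 CPM in the wild type. For BRAF the authors' deposited table gave a log2 fold change of -0.23 (SE 0.07, 95% interval -0.38 to -0.08, 1.17-fold lower, edgeR adjusted p = 0.0157). BRAF thus moved against ERF and HBG2.

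BRAF shares 1239 exon bases with NDUFB2, a subunit gene of respiratory complex I on the opposite strand, in GENCODE 29. No source used here states the strand setting of the counting, so reads of this stretch cannot be assigned with certainty. NDUFB2 stood at -0.01 on the log2 scale in the authors' deposited table, with a 95% interval from -0.22 to 0.20. An unprocessed pseudogene, BRAFP1 on chromosome X, could also take BRAF reads and was not analysed here.

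ARAF (ENSG00000078061, chromosome X), also a RAF kinase, came to 61.8 CPM in the libraries labelled knockout and 63.4 CPM in the wild type. For ARAF the authors' deposited table gave a log2 fold change of -0.04 with a 95% interval from -0.16 to 0.08 (edgeR adjusted p = 0.577). The bounds correspond to ratios of 0.898 and 1.06. The intervals of ARAF and BRAF overlap, and their difference was not tested. ARAF has 3 processed pseudogenes, ARAFP1, ARAFP2 and ARAFP3, which were not analysed here, and shares 23 exon bases with SYN1 on the opposite strand.

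The MEK kinases MAP2K1 and MAP2K2, which phosphorylate ERK, had estimates on opposite sides of 0, neither past the threshold. MAP2K1 (ENSG00000169032, chromosome 15) came to 23.9 CPM in the libraries labelled knockout and 22.4 CPM in the wild type. The authors' deposited table put its log2 fold change at 0.09 with a 95% interval from -0.04 to 0.22 (edgeR adjusted p = 0.222). MAP2K1 shares 216 exon bases with SNAPC5 on the opposite strand, a subunit gene of the snRNA-activating complex. SNAPC5 was higher in the libraries labelled knockout, at 0.35 in the authors' deposited table (SE 0.08, edgeR adjusted p = 0.00404). Its part in the MAP2K1 value was not tested. TIPIN, a replication fork gene 70 bases from MAP2K1 on the opposite strand, was also higher, with 0.22 in the authors' deposited table (edgeR adjusted p = 0.0155). MAP2K1 also shares 432 exon bases with AC116913.1 on the opposite strand and has a processed pseudogene, MAP2K1P1, neither of which was analysed here.

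MAP2K2 (ENSG00000126934, chromosome 19) came to 91.2 CPM in the libraries labelled knockout and 98.9 CPM in the wild type. The log2 fold change of MAP2K2 in the authors' deposited table was -0.12 with a 95% interval from -0.25 to 0.01 (edgeR adjusted p = 0.120). This interval only just reaches 0 and overlaps that of MAP2K1 between -0.04 and 0.01. GENCODE 29 places no other gene within 1000 bases of MAP2K2.

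MAPK3 (ENSG00000102882, chromosome 16) encodes ERK1, an ERK kinase at the end of the cascade. It came to 19.9 CPM in the libraries labelled knockout and 19.8 CPM in the wild type, the closest pair among the 7 genes. In the authors' deposited table its log2 fold change was 0.0073 with a 95% interval from -0.18 to 0.20 (edgeR adjusted p = 0.949). The bounds correspond to ratios of 0.881 and 1.15.

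**Figure D2:**
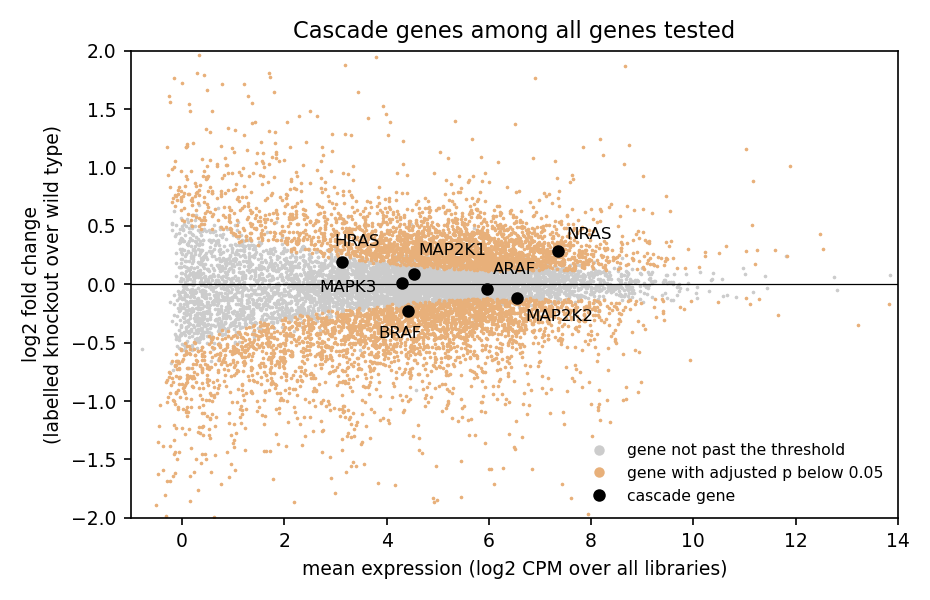
Log2 fold change (vertical axis) against mean log2 CPM (horizontal axis) for all genes, with the 7 cascade genes in black; 49 genes beyond 2 in either direction are not drawn. NRAS and BRAF lie in the band of called genes, the other 5 in the uncalled centre.

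The precision differed between members with their expression in the authors' deposited table. The standard error was 0.05 for NRAS at a mean of 7.36 log2 CPM and 0.12 for HRAS at 3.14 log2 CPM, against a median of 0.07 over all genes. The half-width of the 95% interval ran from 0.10 for NRAS to 0.27 for HRAS on the log2 scale. The half-width for HRAS was thus about the size of the change in NRAS.

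Levels of different genes were compared per kb of transcript, using the longest principal transcript of each gene in GENCODE 29. On that scale, MAP2K2 had the highest mean level over all libraries, 54.3 CPM per kb, followed by NRAS with 36.8 and ARAF with 25.4. MAPK3 (10.7), HRAS (7.64) and MAP2K1 (6.84) lay lower, and BRAF was lowest with 3.31 CPM per kb. Among the members of each family described here, this put NRAS above HRAS, ARAF above BRAF and MAP2K2 above MAP2K1. The spread over libraries is unknown, so whether neighbours in this order differ could not be tested.

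Dividing by all annotated exons joined, in place of 1 transcript, kept the order within each family but not across families. NRAS then stood first with 36.8 CPM per kb, ahead of MAP2K2 with 18.0 and ARAF with 17.7. MAP2K1 (6.21), MAPK3 (5.41) and HRAS (4.74) followed, and BRAF stood last with 0.912 CPM per kb. The joined exons of BRAF cover 23432 bases against 6458 in its principal transcript, so its value depends on the model used, and the transcript in use in these cells is unknown.

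**Figure D3:**
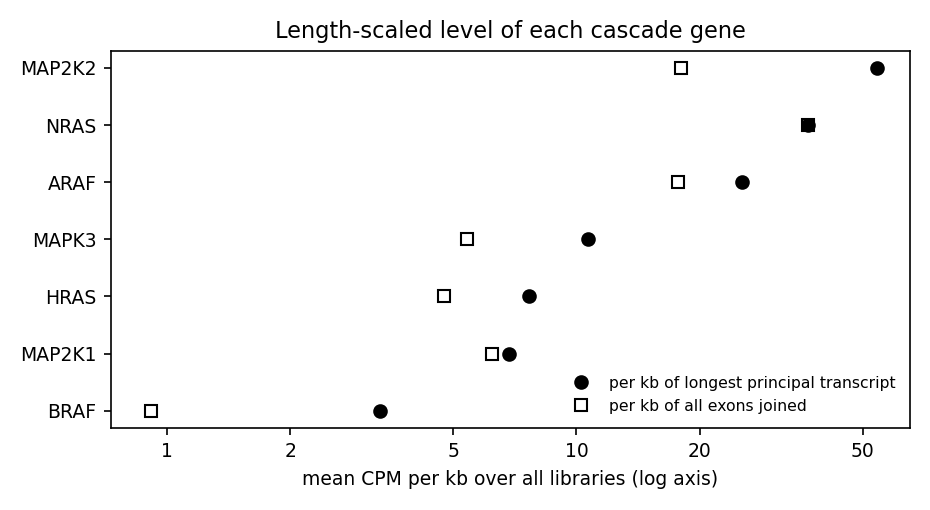
Mean CPM per kb over all libraries (log axis) of each cascade gene, scaled by the longest principal transcript (filled circles) or by all exons joined (open squares). MAP2K2, NRAS and ARAF are the highest 3 and BRAF the lowest on both scales.

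Around the cascade, 9 lists of genes by role held 129 genes, of which 102 had a row in the authors' deposited table. Of these 102 genes, 26 were higher and 26 lower, while 50 missed the threshold, so 51.0% were called against 50.9% over all genes. With 3 further measured genes put back, which were left out after their values had been seen and of which 0 were called, 52 of 105 were called (49.5%). The share called was near the background either way, and the lists are described by their counts and by their named genes.

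Adaptors and exchange factors link receptors to RAS. Of 11 measured, 4 were higher and 3 lower (median log2 fold change 0.13, 63.6% called against 50.9% over all genes). GAB2, a docking protein for cytokine receptors, had the lowest value of all 102 genes, -1.58 in the authors' deposited table (SE 0.06, 2.99-fold lower, edgeR adjusted p = 4.16e-08). Its relative GAB1 stood at -0.26 and the exchange factor SOS2 at -0.31 in the authors' deposited table, both lower. GRB2 (0.26), which brings SOS to receptors, and the adaptors CRK (0.29) and CRKL (0.22) were higher there.

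RAS GTPase-activating proteins switch RAS off. Of 8 measured, 0 were higher and 4 lower (median -0.18). Among the called decreases were RASA2 (-0.34) and RASA1 (-0.26) in the authors' deposited table. The share called was 50.0%, all of it lower, against 50.9% over all genes, where 24.9% were higher and 25.9% lower.

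A further list holds enzymes that attach, trim or remove lipids on RAS and related proteins, and carriers that move them. Of 10 measured, 4 were higher and 1 lower (median 0.09, 50.0% called against 50.9% over all genes). LYPLA2, a thioesterase that removes palmitate, was 1.54-fold higher, at 0.62 in the authors' deposited table (SE 0.06, edgeR adjusted p = 2.82e-05). RCE1 (0.29) and ICMT (0.22), which finish the farnesylated end of RAS, were also higher there. The palmitoyltransferase gene ZDHHC9 had a lower level, with -0.18 in the authors' deposited table.

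Scaffolds and regulators of RAF, MEK and ERK counted 2 higher, 3 lower and 14 uncalled among 19 measured genes (median 0.03). KSR1, a scaffold that holds RAF, MEK and ERK together, was 1.92-fold lower, at -0.94 in the authors' deposited table (SE 0.06, edgeR adjusted p = 2.39e-06). The arrestins ARRB1 (-0.34) and ARRB2 (-0.27) were lower there as well. CDC37, the HSP90 cochaperone that loads kinases such as RAF, stood at 0.27 and the phosphatase subunit PPP1CA at 0.15 in the authors' deposited table, both higher. The share called in this list, 26.3%, was below the 50.9% over all genes.

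The 14-3-3 proteins bind phosphorylated RAF and, among other roles, can hold it in its closed state. Of 6 measured, 4 were higher and 0 lower (median 0.18), so 66.7% were called, where over all genes 50.9% were called and 24.9% were higher. All 6 had means of 6.94 log2 CPM or more, and among genes with at least 5 log2 CPM 57.2% were called and 32.4% were higher. YWHAG had the largest value, 0.54 in the authors' deposited table (SE 0.05, 1.46-fold, edgeR adjusted p = 1.90e-05). YWHAZ (0.30), YWHAQ (0.18) and YWHAB (0.17) were also higher there. YWHAH (0.11) and YWHAE (0.04) in the authors' deposited table missed the threshold.

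Among RAS-like GTPases, 1 of 10 measured genes was higher and 3 were lower (median 0.05, 40.0% called against 50.9% over all genes). RALB (-0.54) and RALA (-0.38), the RAL GTPases, and RAP1A (-0.22) were lower in the authors' deposited table, and RAP2B (0.28) was higher. The next list holds RAS effectors other than RAF and related PI3-kinase genes. It counted 4 higher and 3 lower among 8 measured (median 0.14), a share called of 87.5% against 50.9% over all genes. MLLT4, which encodes the junction protein afadin, was the highest of them at 0.91 in the authors' deposited table, at a low mean of 2.13 log2 CPM. The PI3-kinase genes PIK3CG (0.34) and PIK3CB (0.19) were higher and PIK3CA (-0.47) was lower there. RASSF1 (-0.47) and RGL2 (-0.25) were lower in the authors' deposited table.

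Kinases that ERK activates had 2 of 6 measured genes higher and 1 lower (median 0.09, 50.0% called against 50.9% over all genes). RPS6KA4 (0.22), which encodes MSK2, and RPS6KA3 (0.17), which encodes RSK2, were higher in the authors' deposited table, and RPS6KA5 (-0.56), which encodes MSK1, was lower. MKNK2 (0.10), MKNK1 (0.08) and RPS6KA1 (0.01) were not past the threshold there.

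The parallel MAP kinase cascades, which carry stress and other signals to JNK, p38 and ERK5, had 5 of 24 measured genes higher and 8 lower, with a median of -0.02. MAP3K11 (0.43), MAP3K3 (0.31) and MAP2K4 (0.23) had the largest called increases in the authors' deposited table. MAPK15 was lowest at -1.50 with a mean of 0.47 log2 CPM, followed by MAP3K10 (-0.42) and MAP2K5 (-0.38) in the authors' deposited table. The share called in this list was 54.2%, and that of the core cascade 28.6%. These stand on either side of the 50.9% over all genes, and the difference was not tested.

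**Figure D4:**
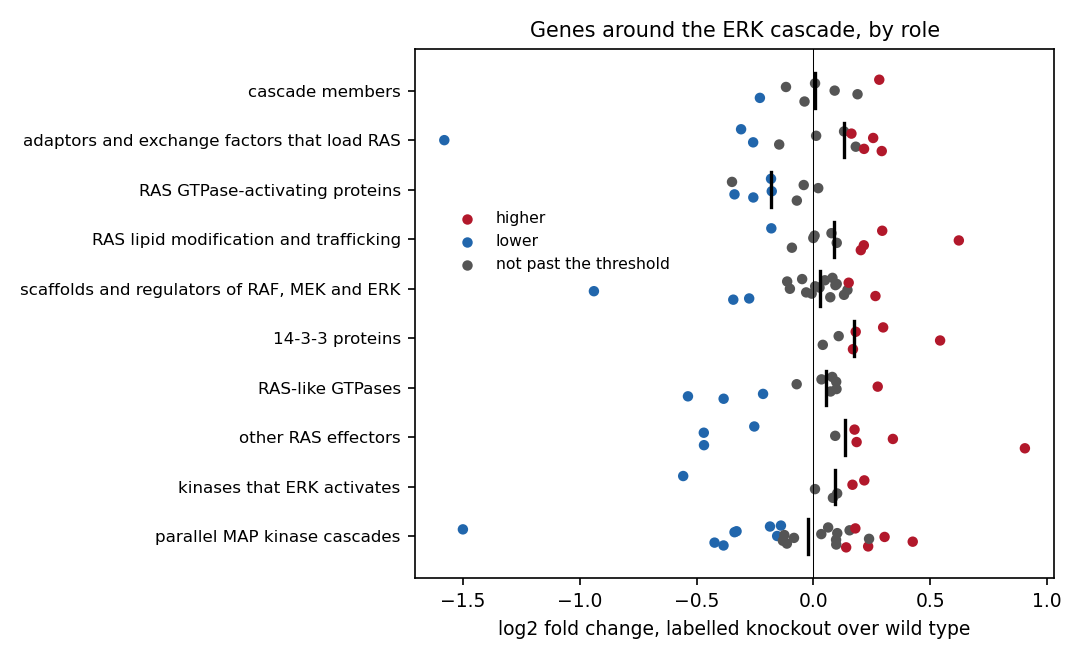
Log2 fold change of the cascade members and of each measured gene in 9 lists by role, coloured by call, with the list median as a vertical bar. GAB2 at -1.58, MAPK15 at -1.50 and KSR1 at -0.94 lie farthest to the left and MLLT4 at 0.91 farthest to the right, and the cascade members lie between -0.23 and 0.28.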

How the data were processed

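RNA-seq of HUDEP-2 cells was read through a single table with the headers logFC, logCPM, F, PValue and FDR. These were read as the authors' log2 fold change, mean log2 CPM over all libraries, quasi-likelihood F score, p-value and adjusted p-value per gene. The quasi-likelihood test is given only by the name of the table, and the mean over all libraries is an assumption. Per the submitters' processing notes, the tools were edgeR 2.6.12, HTSeq, TopHat2 2.0.4, Cuffdiff and SAMtools, on build hg19/GRCh37, without stated roles; whether that edgeR version made this quasi-likelihood table is not stated. Filter, normalization and strand setting: not given in the sources used here. Of 11979 rows, 3 name no gene (21.5% of the CPM) and were left out of all counts. No column per sample exists, so no model was refitted and the depth per library is unknown.

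Standard errors were derived as the absolute log2 fold change over the square root of F, and 95% intervals used t with 10.3 degrees of freedom, solved from F and p. Both are approximate, since edgeR by the authors may shrink fold changes. The 10.3 degrees of freedom exceed what these libraries leave for 1 gene, so the spread behind F is not each gene's own alone. Where the rest comes from is not stated in the sources used here. Simulated data tested only the arithmetic of the derivation, since they held no counts and no shrinkage of fold changes. Group CPM was solved from mean CPM and fold change with 3 and 2 libraries weighted equally, and depends on the sign. Gene models came from GENCODE 29 (GRCh38), which is not the authors' build, and promoters from RefSeq (GRCh38.p14), where 7 of 7 members matched by symbol. Python 3.11.15 and scipy 1.17.1 were used.

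Members, lists and tests were chosen with earlier results of these data known. Named genes were all members and, per list, up to 3 called genes with the largest change each way, or every gene in lists of at most 6 measured. Results for some related genes, 3 of them uncalled and left out of the lists after their values had been seen, are not reported here. Other thresholds, adjustments, filters and centrings were tried.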

Additional observations from a re-analysis of the deposited data

How the results depend on the processing

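Over 46 alternative values, 36 kept their direction and side of the threshold, or stayed within 1.5 times the count. With adjusted p below 0.01, below 0.001, or an absolute log2 fold change of at least 0.25, 1 of the 7 cascade genes was called, NRAS in each case; a centre from genes with 5 log2 CPM or more takes NRAS to 0.248 (adjusted p = 0.00122), short of the 0.25 minimum and of 0.001, and BRAF to -0.263 (adjusted p = 0.00788), past 0.01 and 0.25. Requiring at least 5 log2 CPM left 3 cascade genes, of which 1 was called. All genes called numbered 2262 with adjusted p below 0.001 and 2985 of 5214 with at least 5 log2 CPM, where the split was 1689 higher and 1296 lower; centred on those genes it was 2566 higher and 3532 lower. List genes called numbered 33 at 0.01, 16 at 0.001 and 31 with the fold minimum, against 52. Centred on genes of at least 5 log2 CPM, MAPK3 changed sign, to -0.027 (adjusted p = 0.815, from the derived standard error), since centring shifts every gene by the same amount. Recomputing the adjustment without the rows that name no gene changed no call among these. No paired analysis was possible because the table holds no values per library; for the same reason leaving out replicates was not run.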
